A study of Mus musculus with 8 samples.

Results

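Chromatin of 266-6 cells, a mouse pancreatic acinar line, was compared after combined Arid1a siRNA and EGF with chromatin of cells that received neither. The comparison rests on 4 of the 8 libraries of the series, the pair titled H3K27ac_siArid1aplusEGF and the pair titled H3K27ac_ctrl, and the members were chosen by these titles. In the first pair, here called knockdown with EGF, cells of the genotype label Arid1a-knockdown received siRNA against ARID1A at 25 nM for 48 h and EGF at 40 ng/ml for 8 h. The remaining pairs are EGF alone (label Arid1a-wildtype, 40 ng/ml EGF) and knockdown alone (label Arid1a-knockdown, vehicle). Both pairs received siRNA at 25 nM for 48 h, and EGF or vehicle for 8 h. They served to ask whether a single treatment shows the same change. They also entered the limma tests below, where all 8 libraries set the regions tested and the spread. In the control pair, cells labelled Arid1a-wildtype received a non-targeting siRNA at 25 nM for 48 h and the vehicle, 0.1% BSA, for 8 h. All groups were transfected, starved of serum overnight and immunoprecipitated with the same antibody against histone H3 acetylated at lysine 27 (H3K27ac). Whether the siRNAs, written as directed at ARID1A, match the mouse gene is not stated, and the Arid1a level itself was not analysed here. Nor do they say whether duplicates came from separate cultures, and each p-value therefore measures only the spread between these libraries, which may be technical.

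H3K27ac is placed on nucleosomes by the acetyltransferases p300 and CBP and marks promoters and enhancers in use. ARID1A is a DNA-binding subunit of the canonical BAF form of SWI/SNF, an ATP-driven remodeller that opens chromatin at enhancers, and it is a recurrent tumour suppressor of the pancreas. EGF binds its receptor tyrosine kinase and signals through RAS and ERK to transcription factors of the AP-1 and ETS families. In acinar cells, prolonged signalling of this kind is known to accompany a shift towards a duct-like state. The deposited lists name no genes and give positions in build mm9, for which no genome or annotation was used here, so regions are given by position alone, no gene or motif is tied to them, and the acinar label could not be checked against marker genes. The oligonucleotide that defines the control state is the one sequence of the experiment that the labels spell out. It is printed 5′ to 3′ to identify that control.
non-targeting siRNA: ugguuuacaugucgacuaa

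Both libraries of knockdown with EGF gave short peak lists, and the 2 control libraries differed from each other by more than the groups did. Knockdown with EGF had 22030 and 23256 peaks, against 22167 and 28281 in control cells. Peaks covered 34.2 and 36.8 Mb with both treatments, against 34.3 and 47.2 Mb in control cells, where the second library stood apart. The number of peaks at least 10000 bp wide was 90 and 94 with both treatments and 72 and 150 in control cells. Median peak width was 1197 and 1220 bp with both treatments and 1207 and 1270 bp in control cells. Median fold enrichment over the peak caller's background was 4.92 and 4.67 with both treatments and 4.59 and 4.62 in control cells, so here the groups did not overlap. Means were 22643 ± 867 peaks with both treatments and 25224 ± 4323 in control cells (SD, n = 2 each; exact permutation test, two-sided, p = 0.667). For covered length they were 35.5 ± 1.81 Mb and 40.8 ± 9.09 Mb (SD, n = 2 each, exact permutation p = 0.667), and for median fold 4.80 ± 0.18 and 4.61 ± 0.02 (SD, n = 2 each, exact permutation p = 0.3333). Since 2 libraries against 2 cannot give a p under 0.3333, none of these totals can pass a threshold. Without the second control library both differences changed sign, to 476 more peaks and 1.2 Mb more covered sequence with both treatments. Read depth is unknown, so no counting interval is given and its part in list length was not tested.

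By shared covered sequence, knockdown with EGF lay nearest to EGF alone, though covered length itself limits this measure. The base-pair Jaccard index, the covered sequence shared by 2 lists divided by all they cover, was 0.761 between the libraries of knockdown with EGF. It was 0.713 to 0.725 between these libraries and those of EGF alone, 0.629 to 0.651 between them and those of knockdown alone, and 0.617 to 0.665 between them and the control libraries. The ranges of the last 2 overlapped, and both lay below the range for EGF alone. The control libraries reached 0.658 with each other, below the index within any other group. They covered 34.3 and 47.2 Mb, and lists of unlike length cannot reach a high index. Peaks covered 33.9 and 35.5 Mb with EGF alone and 46.3 and 48.7 Mb with knockdown alone. The first control library, close in length to those of knockdown with EGF, reached 0.665 and 0.655 with them. The part of list length in this order was not tested.

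Peaks of the 4 compared libraries that shared at least 1 bp were merged into 30670 regions. Of these, 17767 (57.9%) held a peak in all 4 libraries and made up 80.1% of the merged length, while 6605 held a peak in a single library, 4751 of them in the second control library. Regions with a peak in both libraries of knockdown with EGF and in neither control library are called gained, and those with the reverse pattern lost. Gained regions numbered 688 (2.24% of all) and lost regions 1697 (5.53%). The excess of losses depended on the library left out. It was 1697 against 688 with all 4, 6481 lost against 778 gained without the first control library, and 2297 against 2164 without the second. Each omission eases the condition for a change, and lists cut to equal length gave 1211 gained and 1250 lost.

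Most regions that came or went were narrow and weak within their lists. The strength of a peak is given below as its fold percentile, the percentage of peaks of its own list whose fold enrichment, the authors' value, was no higher. Gained regions had a median width of 774.5 bp and a median fold percentile of 19.3 in the libraries that held them. Lost regions had medians of 1028 bp and 24.3, and regions with a peak in all 4 libraries had medians of 1917 bp and 61.1. Only 214 gained regions (31.1%) and 650 lost regions (38.3%) reached a −log10 q of 2 in both libraries that held them, against 83.0% of the regions held by all 4 libraries in each of these. Fold percentiles above 50 in both holding libraries were found in 18 gained and 38 lost regions. Few of them lay beside a peak of the other group: 5.67% of gained regions lay within 1000 bp of a control peak, and 2.59% of lost regions within 1000 bp of a peak of knockdown with EGF.

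The leading gained regions held peaks above the middle of their lists with both treatments and none in control cells. At chr11:101645191-101646581 the covered length was 1391 and 1352 bp in knockdown with EGF and 0 bp in both control libraries. Its fold percentiles were 71.7 and 77.6 with both treatments and 92.8 and 83.8 with EGF alone, and neither knockdown library held a peak. By limma the covered length of the enclosing region was higher by 2.97 ± 0.29 (SE, adjusted p = 0.0176). Differences in covered length are in units of log2(covered bp + 200), which understates those of short peaks. The region at chr1:195269758-195271974 was covered over 2217 and 1819 bp with both treatments, over 1772 and 1658 bp with EGF alone, over 0 and 291 bp with knockdown alone and over 0 bp in both control libraries. It rose by 3.47 ± 0.46 (SE, limma adjusted p = 0.0231). A like pattern without any peak in the knockdown libraries was seen at chr18:38760365-38761886, covered over 1241 and 1522 bp with both treatments and not at all in control cells (limma difference 2.98 ± 0.30 SE, adjusted p = 0.0176). Knockdown alone did hold peaks at chr17:21559880-21560640, with 703 and 761 bp under both treatments, 241 and 367 bp with EGF alone, 544 and 568 bp with knockdown alone and 0 bp in both control libraries. The fold percentiles of this region with both treatments were 53.8 and 53.5. Of the 10 gained regions with the highest fold percentile in their weaker library, 6 passed the limma test. Among all 688 gained regions 181 were called, and 0.927% of all tested regions were called higher. Gained regions were picked by the peaks of the libraries that limma tests again, so these tallies are no separate support.

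Among lost regions, several control peaks of more than median strength were missing with both treatments. The region at chr9:121674125-121675773 had no peak in either library of knockdown with EGF, against 1553 and 1649 bp in control cells, at fold percentiles of 71.8 and 72.9. Each single treatment left a narrower peak there, of 293 and 526 bp with EGF and of 371 and 886 bp with knockdown. Covered length fell by 3.17 ± 0.42 (SE, limma adjusted p = 0.0229). At chr15:88031478-88034917 the covered length was 0 bp in both libraries of knockdown with EGF, 981 and 1090 bp with EGF alone, 1499 and 1285 bp with knockdown alone, and 2362 and 3440 bp in control cells. There the 4 groups did not overlap, and covered length fell by 3.93 ± 0.24 between knockdown with EGF and control (SE, limma adjusted p = 0.0123). The regions at chr8:46417900-46419163 and chr10:16915563-16916535 had no peak in any EGF-treated library, with or without knockdown, and a peak in all 4 vehicle libraries. Of the 10 lost regions that ranked highest in the same way, 6 passed the limma test. Among all lost regions 590 of 1696 were called, and 3.35% of all tested regions were called lower. Lost regions were picked by peaks of the same libraries, so these tallies are no separate support.

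Peaks of the single treatments were then counted in these regions. Of the 688 gained regions, 322 (46.8%) held a peak in both EGF libraries and 266 (38.7%) in both knockdown libraries. The largest single class, 139 regions, had a peak in both EGF libraries and in neither knockdown library. Of the 1697 lost regions, 927 (54.6%) had no peak in either EGF library and 220 (13.0%) had none in either knockdown library. Here the largest class, 564 regions, lacked a peak in both EGF libraries and kept it in both knockdown libraries. The EGF lists were short, at 22361 and 23080 peaks, and the knockdown lists long, at 26844 and 27558. The part of list length in these classes was not tested. Shares of the same classes over all merged regions were not counted, so the classes are a description.

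**Figure D1:**
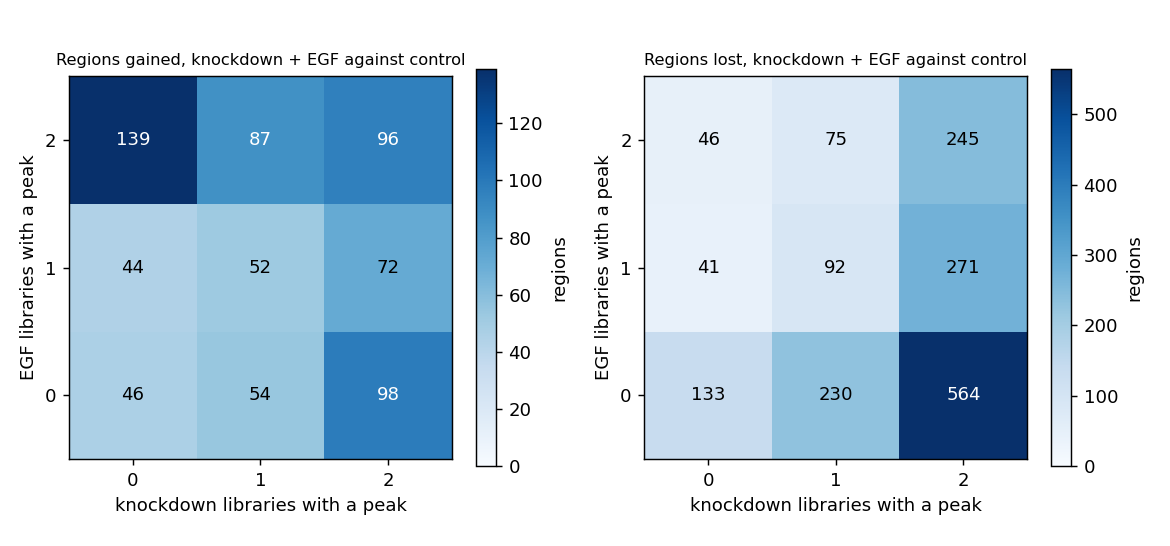
Number of regions gained (left) and lost (right) in knockdown with EGF against control, by how many of the 2 libraries of EGF alone (vertical axis) and of knockdown alone (horizontal axis) held a peak there. Of the gained regions 46 had no peak under either single treatment (lower left corner), and of the lost regions 245 kept a peak in all 4 single-treatment libraries (upper right corner).

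Changes that neither single treatment showed were fewer, and more of them were losses than gains. Only 46 gained regions had no peak in any library of EGF alone or knockdown alone (0.15% of all 30670 regions). Lost regions that kept a peak in all 4 libraries of the single treatments numbered 245 (0.799%). On regions merged over all 8 lists the same pattern can be counted for each group. Peaks found in both libraries of a group and in no other library numbered 46 for knockdown with EGF, 150 for EGF, 537 for knockdown and 133 for control. Peaks missing from both libraries of a group and present in all 6 others numbered 242 for knockdown with EGF, 230 for EGF, 20 for knockdown and 90 for control. Knockdown with EGF thus had the fewest such peaks of the 4 groups, and absences from it were close in number to those from EGF alone; these counts were not tested against each other. List length moved with these counts: the EGF libraries held 22361 and 23080 peaks and the knockdown libraries 26844 and 27558, and its part in them was not tested. The count of 46 became 411 without the first and 185 without the second library of knockdown with EGF, 76 when the second EGF library was omitted and 83 when the second knockdown library was. The count of 245 became 415 and 610 without the first and second library of knockdown with EGF and 412 without the first EGF library, since each omission eases the condition. With lists of equal length the 2 counts were 117 and 124, so the excess of losses did not hold there.

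The 46 gained regions were weak, with a median width of 506.5 bp and a median fold percentile of 12.5, and 3 of them reached a −log10 q of 2 in both libraries. The highest ranked, at chr12:8888519-8889810, was covered over 841 and 1194 bp in knockdown with EGF and over 0 bp in the other 6 libraries, with fold percentiles of 40.0 and 34.0. It rose by 2.59 ± 0.31 against control (SE, limma adjusted p = 0.0211). The other groups, all at 0 bp, show no spread, so this SE and p can be too small, and the region was picked for this pattern. The 245 lost regions were wider and stronger, with medians of 1335 bp and 33.3, and 152 of them reached a −log10 q of 2 in both control libraries. At chr4:12665501-12667461 no peak was called in either library of knockdown with EGF, while 1097 and 1653 bp were covered with EGF, 1675 and 1793 bp with knockdown, and 1756 and 1961 bp in control cells. That is a difference of -3.36 ± 0.23 from control (SE, limma adjusted p = 0.0123). At chr6:14307521-14309685 the covered length was 0 bp in both libraries of knockdown with EGF, 1756 and 1603 bp with EGF, 1559 and 2112 bp with knockdown, and 2165 and 1608 bp in control cells. At chr15:49444751-49446945 it was 0 bp in both, 1485 and 1602 bp with EGF, 1405 and 1615 bp with knockdown, and 1236 and 2195 bp in control cells. In each of these regions the 6 other libraries held more than 1000 bp. A covered length of 0 bp means that no peak was called, not that acetylation was absent.

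**Figure D2:**
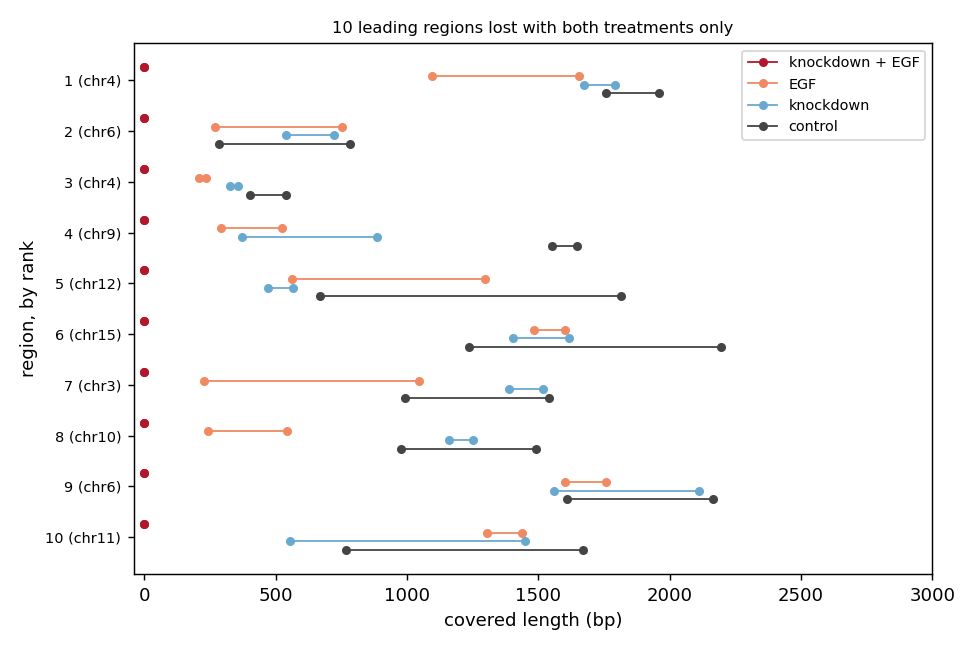
Covered length in bp (horizontal axis) in each of the 8 libraries for the 10 leading regions that were lost with both treatments and kept under either single treatment; points are libraries and lines join the 2 of a group. Both libraries of knockdown with EGF lie at 0 bp in each region, and the first region is covered over 1097 to 1961 bp in the other 6 libraries.

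Covered length was then tested over 28146 regions of the 8-list merge, those found in at least 2 libraries. In them limma called 261 regions higher (0.927%) and 943 lower (3.35%) in knockdown with EGF than in control cells at an adjusted p under 0.05, and the median difference over all regions was -0.10. Quantile normalization moved that median by 0.16 and called 543 higher and 765 lower, which took the share of higher calls to 41.5% from 21.7%, and lists of equal length gave 631 and 957, a share of 39.7%. These calls rested on few libraries: limma called 0 regions without the first library of knockdown with EGF (4101 at an unadjusted p under 0.05), 1 higher and 68 lower without the second, 903 and 565 when the second control library was omitted, 252 and 1807 when the first was, and 0 when only the 4 compared libraries were fitted (4534 at an unadjusted p under 0.05). Without the EGF and knockdown libraries in turn there were 100 to 157 higher and 426 to 551 lower calls.

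Fold percentile separated the groups more sharply than width did. It was tested in the 16607 regions with a peak in all 8 libraries, so that every library gave a value. Limma called 1478 regions higher (8.9%) and 2493 lower (15.0%) in knockdown with EGF than in control cells. Called regions rose by a median of 21.6 percentile points or fell by a median of 26.5. They were no wider than the rest, with median widths of 2208 bp (higher), 2214 bp (lower) and 2210 bp (all tested). Regions that fell were strong in control cells, with a median fold percentile of 54.9 under both treatments and 83.2 in control cells. Regions that rose were at 88.1 and 66.6, and all tested regions at 62.3 and 65.5. A large fall needs a high start on this scale, so the choice of regions builds in part of the high start of those that fell. The split between directions depended on the scaling: ranks taken among the tested regions alone gave 2451 higher and 2449 lower (50.02% higher, against 37.2% with ranks in the whole list), and quantile-normalized log2 fold gave 2662 and 2690 (49.7%). The counts were 497 and 1025 or 505 and 1418 when the first or second library of knockdown with EGF was omitted. They were 925 and 2568 when the first control library was omitted, and 2641 and 1761 when the second was, where the majority turned.

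The 10 regions that rose with the smallest p all lay at fold percentiles of 94.0 to 99.5 with both treatments and 57.9 to 83.3 in control cells. Percentiles have little room to spread near their upper limit, which can favour such regions in a ranking by p. At chr9:72886550-72888361 the fold percentile was 99.5 and 99.4 in knockdown with EGF, 99.2 and 99.5 with EGF, 89.0 and 86.2 with knockdown, and 76.9 and 72.7 in control cells. The rise over control was 24.7 ± 2.23 points (SE, limma adjusted p = 9.89e-04), and only the 2 EGF-treated groups overlapped. At chr14:55172197-55173911 the values were 96.2 and 96.5 with both treatments, 96.8 and 94.6 with EGF, 68.0 and 75.3 with knockdown, and 60.0 and 64.4 in control cells. At chr7:13534074-13536014 they were 97.3 and 96.2 with both treatments, 93.2 and 88.3 with EGF, 90.7 and 92.4 with knockdown, and 67.0 and 64.9 in control cells, so each single treatment also lay above control. Against control, limma called 10 of these 10 higher for EGF alone, beside 9.71% of all tested regions, and 3 for knockdown alone, beside 0.0181%. The 10 were picked against the same control libraries, which builds in part of these counts. None of the 10 was called for covered length.

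Regions that fell with the smallest p were strong in control cells and stood much lower with both treatments. Both libraries of knockdown with EGF lay below all 4 of the single treatments in 9 of these 10, in 847 of the 2493 regions called lower (34.0%) and in 1950 of all 16607 (11.7%). Regions picked for low values in these libraries must show the pattern more often, so nothing is read from the 9. At chr5:33870581-33872991 the fold percentile was 1.36 and 2.41 in knockdown with EGF, 27.3 and 29.1 with EGF, 35.6 and 40.1 with knockdown, and 70.4 and 80.6 in control cells. The fall against control was -73.6 ± 8.43 points (SE, limma adjusted p = 9.89e-04), and no 2 groups overlapped. At chr7:26625338-26630836 the values were 24.3 and 33.6 with both treatments, 63.7 and 62.1 with EGF, 70.7 and 74.8 with knockdown, and 88.1 and 89.2 in control cells, again without overlap. At chr3:122431926-122433702 they were 15.0 and 17.8 with both treatments, 31.4 and 25.4 with EGF, 71.2 and 64.5 with knockdown, and 80.8 and 83.6 in control cells, with the EGF-treated groups close to each other. The differences of these 3 regions from EGF alone did not pass the limma test (adjusted p of 0.172, 0.064 and 0.495).

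**Figure D3:**
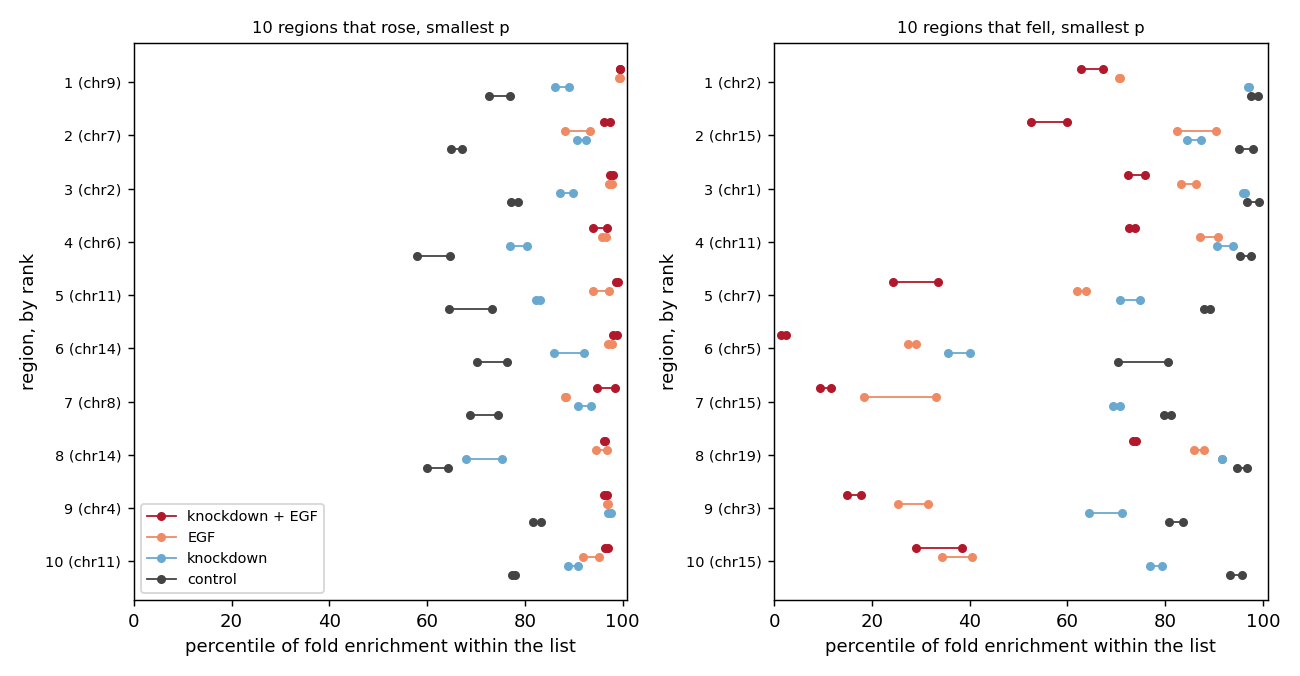
Percentile of fold enrichment within the library's own list (horizontal axis) for the 10 regions that rose (left) and the 10 that fell (right) with the smallest limma p in knockdown with EGF against control; points are libraries and lines join the 2 of a group. On the left knockdown with EGF lies at 94.0 or above and control at 83.3 or below, and on the right control lies at 70.4 or above and knockdown with EGF at 75.9 or below.

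With all libraries, knockdown with EGF and EGF alone each gave many calls in fold percentile against control and knockdown alone gave few, and the last count rested on the second control library. These contrasts share the control libraries, so their counts are not independent. For fold percentile, limma called 1478 higher and 2493 lower for knockdown with EGF against control, 1612 (9.71%) and 2903 (17.5%) for EGF alone against control, and 3 (0.0181%) and 1 (0.00602%) for knockdown alone against control. When the second control library was omitted, knockdown alone gave 1270 higher and 59 lower and EGF alone 2680 and 2073. EGF alone gave 751 and 1737 or 796 and 2132 when its first or second library was omitted, and 1024 and 3137 when the first control library was. Direct contrasts gave 22 higher (0.132%) and 12 lower (0.0723%) for knockdown with EGF against EGF alone, and 678 (4.08%) and 2298 (13.8%) for knockdown with EGF against knockdown alone. Against EGF alone the counts were 123 and 81 or 112 and 75 when the first or second control library was omitted, and 4 and 0 or 63 and 3 when the first or second EGF library was. They were 0 by limma when any library of knockdown alone or of knockdown with EGF was omitted (1670 to 2043 at an unadjusted p under 0.05). Against knockdown alone they were 87 and 98 or 99 and 118 when its first or second library was omitted, 94 and 542 or 166 and 1063 when the first or second library of knockdown with EGF was, and 1183 and 3157 or 1130 and 3209 when the first or second control library was.

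For covered length, EGF alone gave 296 higher (1.05%) and 815 lower (2.9%) and knockdown alone 308 (1.09%) and 77 (0.274%), each against control. There the direct contrasts gave 66 higher (0.234%) and 120 lower (0.426%) against EGF alone, and 175 (0.622%) and 1689 (6.0%) against knockdown alone. When the second control library was omitted, covered length gave 897 higher and 518 lower for EGF alone and 2894 and 62 for knockdown alone. When the first was omitted it gave 284 and 1826 for EGF alone and, by limma, 0 for knockdown alone (3296 at an unadjusted p under 0.05). Omitting any EGF, knockdown or combined library left knockdown alone at 0 limma calls (2429 to 3209 at an unadjusted p under 0.05). For EGF alone limma made 0 or 1 calls when any single-treatment library was omitted (with 3741 to 4818 regions at an unadjusted p under 0.05), and 148 and 316 or 157 and 325 without the first or second library of knockdown with EGF. The direct contrasts on covered length rose to at most 296 and 334 against EGF alone and 365 and 3685 against knockdown alone when a control library was omitted. Against EGF alone they gave at most 0 and 4 calls when any other library was omitted (2432 to 2788 at an unadjusted p under 0.05). Against knockdown alone they gave at most 77 and 817 in that case, and 0 when either knockdown library or the first library of knockdown with EGF was omitted (4540 to 4882 at an unadjusted p under 0.05). The standard error of a difference in fold percentile had a median of 7.51 points, so changes of a few points between knockdown with EGF and EGF alone could not be detected.

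Whether the combined change differed from the sum of the single changes was tested as the interaction of both factors. Limma called 0 regions for fold percentile (1065 of 16607 at an unadjusted p under 0.05, smallest adjusted p = 0.0564) and 0 for covered length (2525 of 28146 at an unadjusted p under 0.05, smallest adjusted p = 0.153). The standard error of the interaction had a median of 10.6 points, and the central 90% of its estimates lay between -23.0 and 15.4 points. A fold percentile cannot exceed 100, which limits sums of 2 rises. The count of 0 did not hold in every setting: without the second control library 1134 regions were called for covered length and 37 for fold percentile, and with peaks of a −log10 q of at least 2 alone 403 were called for covered length.

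**Figure D4:**
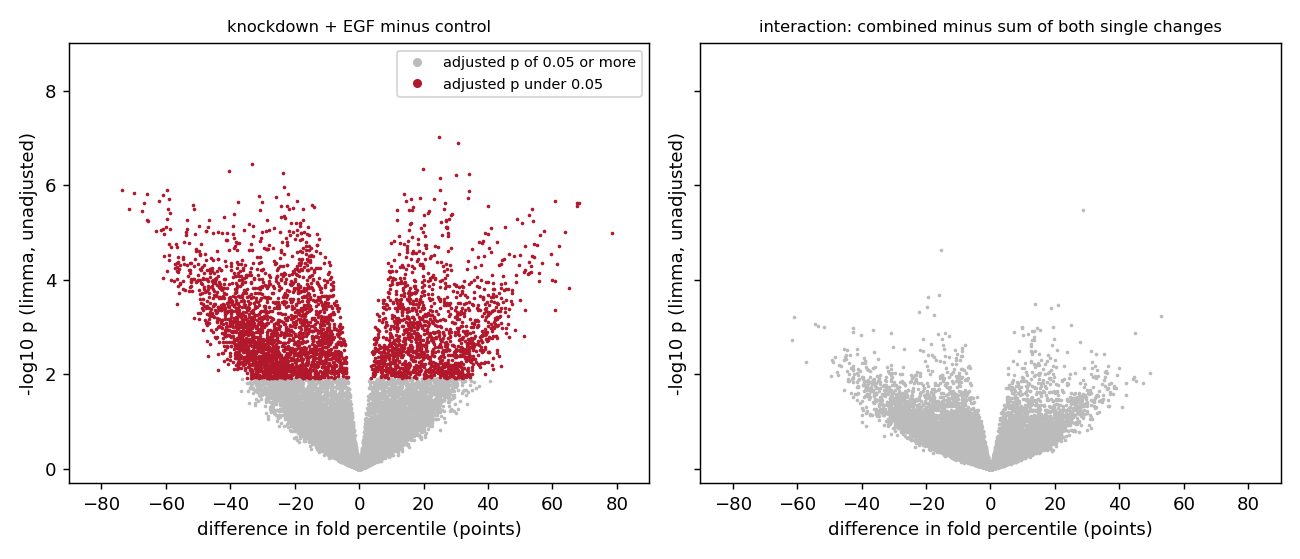
Difference in fold percentile (horizontal axis, points) against −log10 of the unadjusted limma p (vertical axis) for 16607 regions, for knockdown with EGF minus control (left) and for the interaction of both treatments (right). On the left 1478 regions above 0 and 2493 below 0 pass an adjusted p of 0.05 (red); on the right none pass.

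A stricter reading of a change that neither single treatment shows asks that knockdown with EGF differ in the same direction from control, from EGF alone and from knockdown alone. For covered length 6 regions met this as higher (0.0213%) and 74 as lower (0.263%). All 6 higher regions had a peak in both libraries of knockdown with EGF and in no other, and 5 of them were at fold percentiles under 15 in these. Since the other groups show no spread there, the SE and p of these 6 can be too small. Of the 74 lower ones, each with a peak in all 6 other libraries, 56 had no peak in either library of knockdown with EGF and 14 had a peak in both. The region at chr13:57772434-57777754 was covered over 0 bp in both libraries of knockdown with EGF, 1163 and 1111 bp with EGF, 3544 and 3570 bp with knockdown, and 2709 and 5321 bp in control cells, a difference of -4.32 ± 0.29 from control (SE, limma adjusted p = 0.0123). For the region at chr4:12665501-12667461 the difference was -2.95 ± 0.23 from EGF alone (SE, limma adjusted p = 0.0307) and its interaction was -3.05 ± 0.33 (SE, limma adjusted p = 0.153). These counts fell to 0 higher and 0 lower without either EGF library, either knockdown library or the first library of knockdown with EGF (646 to 749 at an unadjusted p under 0.05 in all 3 contrasts), to 0 and 4 without the second, and rose to 11 and 152 or 28 and 112 without the first or second control library.

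For fold percentile 0 regions met the stricter reading as higher (427 in either direction at unadjusted p under 0.05 in all 3 contrasts) and 5 as lower (0.0301%), and these 5 are named for their number, after their values were seen. At chr15:88004644-88011280 the fold percentile was 52.6 and 59.8 in knockdown with EGF, 82.4 and 90.4 with EGF, 84.5 and 87.3 with knockdown, and 95.0 and 98.0 in control cells. It differed by -40.3 ± 4.24 points from control and by -30.2 ± 4.24 from EGF alone (SE, limma adjusted p = 9.89e-04 and 0.0416). At chr11:87171040-87173254 the values were 72.6 and 73.9 with both treatments, 87.1 and 90.9 with EGF, 90.7 and 94.0 with knockdown, and 97.6 and 95.4 in control cells. The region at chr10:113562431-113566052 had 27.1 and 36.0 with both treatments and 86.3 and 84.1 in control cells, that at chr16:46289979-46292218 had 46.6 and 63.9 against 91.4 and 94.6, and that at chr8:13453376-13456460 had 63.2 and 63.5 against 84.7 and 92.7. In all 5 both libraries of knockdown with EGF lay below the other 6, which the choice of regions largely builds in, so nothing is read from it. The count was 35 or 33 when the first or second control library was omitted, 3 when the second EGF library was, and 0 when any other was (243 to 390 at an unadjusted p under 0.05 in all 3 contrasts).

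A stretch of chromosome 15 was chosen after its values were seen, so its counts are a description. It held 1 region that met the stricter reading by fold percentile and 1 that met it by covered length. From 87980000 to 88100000, 120 kb in all, there were 9 regions, 2 of them with peaks in every library. Both fell in fold percentile, the one at chr15:88004644-88011280 as above and the one at chr15:88019819-88021888 to 26.7 and 37.9 in knockdown with EGF, against 72.6 and 84.6 in control cells (limma difference -46.3 ± 7.92 SE, adjusted p = 0.00273). That second region stood at 64.6 and 74.8 with EGF and 52.5 and 55.2 with knockdown, and its differences from these did not pass the test (limma adjusted p of 0.069 and 0.077). In 3 further regions of the stretch both control libraries held a peak and neither library of knockdown with EGF did. At chr15:88012356-88013980 the covered length was 0 bp in both libraries of knockdown with EGF, 318 and 0 bp with EGF, 759 and 0 bp with knockdown, and 1578 and 702 bp in control cells, which did not pass the test (limma adjusted p = 0.171). The others, at chr15:88031478-88034917 and at chr15:88077561-88079307, did. The last of these had no peak in any EGF-treated library and was covered over 749 and 1186 bp with knockdown and 787 and 1456 bp in control cells. No region of the stretch was called higher. The regions at chr15:87989917-87990940, chr15:87993567-87994293 and chr15:88037300-88037710 had a peak in the second control library alone. Over all tested regions limma called 15.0% lower and 8.9% higher by fold percentile. By peak presence 5.53% of the 30670 merged regions were lost.

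**Figure D5:**
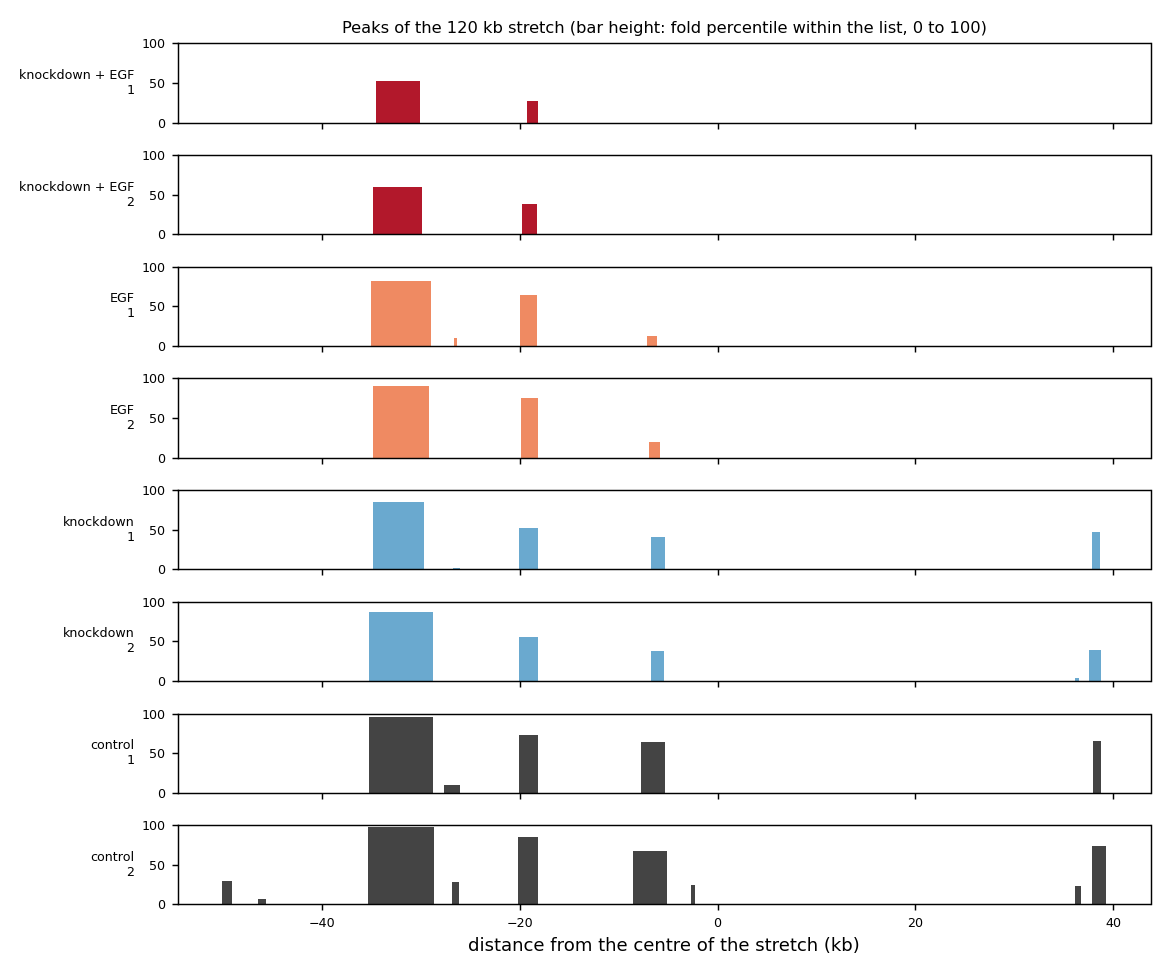
Peaks of each library over 120 kb of chromosome 15, as bars whose height is the fold percentile within the library's list (vertical axis, 0 to 100) and whose horizontal position is the distance from the centre of the stretch in kb. The tallest bar is at 52.6 and 59.8 in knockdown with EGF and at 95.0 and 98.0 in control cells, and the bar nearest to the centre that control cells show in both libraries is missing from knockdown with EGF.

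Regions called by fold percentile lay together elsewhere too. Where called regions of the same direction within 50 kb of each other are joined, the row of falls with the most called regions was on chromosome 11 from 113347176 to 113482999, where 7 of 9 tested regions were called lower, beside 15.0% of all tested, and 0 higher. Rows were picked for their calls, so these counts are a description. Its median difference was -26.2 points for knockdown with EGF, -16.7 for EGF alone and 2.45 for knockdown alone, each against control. At most 5 called regions stood in a row of rises, in 2 places. In the one on chromosome 11 from 76220333 to 76309039, 5 of 6 tested regions were called higher, beside 8.9% of all tested, with median differences of 18.7 points for knockdown with EGF, 19.9 for EGF alone and 7.69 for knockdown alone. In the one on chromosome 7 from 13494995 to 13624731, 5 of 9 were called higher and 1 lower, with median differences of 5.41 points for knockdown with EGF, 4.75 for EGF alone and 14.3 for knockdown alone.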

How the data were processed

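The authors deposited 1 peak list per library, with 9 columns and no header, so peaks were called per sample. Per the submitters' processing notes, the tools were deepTools 3.0.2, MACS2 2.1.1.20160309.0, SAMtools and Bowtie2 2.3.4.2 and the build mm9, with no role stated. For the caller's settings and any input library, the sources used here say nothing. The authors' lists hold, per peak, a fold enrichment (a ratio to background), −log10 p, −log10 q and a score, which equals −log10 q times 10 cut to a whole number in 99.9776% of peaks or more per list.

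Peaks were merged at 1 bp or more, over 4 lists for presence and over all 8 for tests. Limma 3.58.1 (empirical Bayes with trend, R 4.3.3) was fitted to all 8 libraries with a mean per group, on log2(covered bp + 200) or on fold percentile (strongest peak of the region), with Benjamini-Hochberg adjustment over all regions and a threshold of 0.05. Where neither library of a group held a peak, that group shows no spread, so the SE and p of the region can be too small. Steps were tested on simulated data. Tables and plots used matplotlib 3.10.9, SciPy 1.17.1, NumPy 2.4.6 and pandas 2.3.3 under Python 3.11.15.

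Named regions are the leading 10 per direction by lowest fold percentile among holding libraries (presence), by smallest p (fold percentile) or by largest difference (apart from all 3 other groups). Where a 4-list region is named, limma values belong to the region of the 8-list merge that encloses it. Members, lists and tests were chosen with earlier results of these data known. Alternatives covered stricter peaks, lists of equal length, overlap and merge rules, pseudocounts, filters, scalings, omission of each library and a replicate block. Planned gene lists were not analysed here.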

Additional observations from a re-analysis of the deposited data

Results flagged for a closer look

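At 2 of the named regions both libraries of knockdown with EGF lay below both of knockdown alone while both of EGF alone lay above both control libraries. At the second of them the order within knockdown cells comes only from entering 0 for missing peaks. How many of all regions show this order was not counted, so nothing is read from the 2. At chr4:62185385-62186444 the fold percentiles were 96.8 and 96.2 in knockdown with EGF, against 97.6 and 97.0 in knockdown alone, and 96.9 and 96.9 with EGF alone, against 83.3 and 81.7 in control cells. The difference within knockdown cells, -0.77 ± 1.64 points (SE), did not pass the limma test (adjusted p = 0.776), and 3 of the 4 groups lay near the upper limit of the scale. The EGF effect in knockdown minus that in Arid1a-wildtype cells, -15.2 ± 2.31 points (SE), did not pass it either (limma adjusted p = 0.195). At chr4:103670427-103670966 no peak was called in either library of knockdown with EGF, so no fold percentile exists there. The values were 40.2 and 33.6 in knockdown alone and 41.1 and 50.9 with EGF alone, against 36.1 and 37.5 in control cells. Its difference of -46.1 points arises from entering 0 for the missing peaks and was not tested. Covered length there had the reverse order, at 209 and 235 bp with EGF alone against 540 and 402 bp in control cells. Its interaction in covered length was -1.61 ± 0.45 (SE, limma adjusted p = 0.310).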

How the results depend on the processing

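Read depth is unknown, and 2 libraries per group leave little to estimate the spread. The differences in fold percentile between knockdown with EGF and control at 23 named regions kept their direction in all 184 values from omissions. In all 137 values from other alternatives they also kept their side of the threshold, 1 region having none with the stricter peaks. These regions were picked by their limma p in the same libraries, which builds in much of this. Differences from the single treatments did not hold in this way, as the report gives. For covered length, 53 named regions gave 322 values on the same side of the threshold outside the omissions. Another 110 were no longer past it and 14 were newly past it, none with another sign. Most of the losses came with the 4 libraries alone (40) and the replicate block (30). Omission of single libraries also moved values of these regions across the threshold, more often out of it than into it. Leaving out single libraries gave 497 to 2641 higher and 1025 to 2569 lower calls for fold percentile, 0 to 903 and 0 to 1807 for covered length, 0 to 37 and 0 to 1134 interaction calls, and 0 to 1 higher and 0 to 35 lower, or 0 to 28 and 0 to 152, apart from all 3 other groups. It gave 778 to 2164 gained and 2134 to 6481 lost regions, and 48 to 411 and 265 to 610 of them shown by neither single treatment. Peak number differed by -5638 to 476 and covered length by -11.7 to 1.2 Mb, turning sign without the second control library.

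Same-numbered libraries did not deviate together (correlations of -0.01 to 0.06 over regions). With the replicate block covered length gave 10 higher and 81 lower calls and 0 and 0 apart from all 3 groups, and fold percentile 1 interaction call. Peaks with a −log10 q of at least 2 left 150 lost regions shown by neither single treatment, 403 interaction calls, and 29 and 114 regions apart from all 3 groups by covered length and 8 lower by fold percentile. Lists of equal length gave 1211 gained regions, 117 gained and 124 lost shown by neither, 631 higher calls and 61 higher apart. A pseudocount of 50 gave 393 higher, and 31 and 153 apart, and one of 1000 gave 0 and 0 apart. Without a filter there were 166 higher and 617 lower calls and 0 higher apart, and with a peak in at least 4 libraries 0 higher apart. Quantile normalization gave 543 higher, and the 4 libraries alone 0 and 0. For fold percentile, the quantile-normalized log2 fold gave 2662 higher, and 8 and 15 apart, ranks among tested regions 2451 higher, and 6 and 17 apart, and the percentile of −log10 q 467 higher and 1197 lower. The cause was not tested.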

Other observations

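Changed regions were spread over all chromosomes with at least 100 tested regions, at different shares. By fold percentile the share called lower in knockdown with EGF than in control cells ran between 7.06% on chromosome X (25 of 354 regions) and 18.2% on chromosome 16 (113 of 620). The share called higher ran between 4.85% on chromosome 12 (29 of 598) and 10.8% on chromosome 10 (100 of 925). By peak presence chromosome X had 10 lost regions of 630 (1.59%), and chromosome 1 had 129 of 1822 (7.08%). These shares are descriptions of the 4 libraries, with no test of a difference between chromosomes.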
